A study of Ptychodera flava with 8 samples.

Results

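The regions described here were open throughout early development of the acorn worm Ptychodera flava, yet slipped down the order of accessible sites between the early blastula and the late gastrula. They number 1071, of 23566 constant regions and of 82811 regions in all. A constant region is a stretch of the genome with a peak at each of the 4 stages sampled, once peaks that overlap by at least 1 bp are merged, and with no peak wider than 1000 bp. Every peak was ranked within the list of its stage by the enrichment the authors deposited for it, from percentile 0 (lowest) to 100 (highest), and a region took its highest peak at each stage. Members were chosen by these values alone: they are the constant regions whose late gastrula percentile lay at least 30 points below their early blastula percentile.

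The study profiled whole animals of this hemichordate at the early blastula and then at the early, the mid and the late gastrula. There were 2 ATAC-seq libraries per stage and 8 in all, each from embryos pooled to 75000 cells. No treatment and no strain is named for any stage, so stage is the sole difference the labels give between groups. Because whole embryos were pooled, fewer cells with an open site and less opening per cell cannot be told apart.

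In ATAC-seq, the Tn5 transposase cuts and tags DNA that is not wrapped in nucleosomes, so a peak marks an open stretch such as a promoter or an enhancer. The blastula is a hollow ball of cells that have largely not taken on separate fates. During gastrulation cells move inward to form the gut and the germ layers, and enhancers that act in single lineages come into use. Sites that stay open across such a transition often include the promoters of genes that all cells use, while changes in the degree of opening are frequent at enhancers. Which of these classes the regions below belong to was not analysed here, because no genome build is named for the lists.

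The deposited data hold 1 peak list per stage and no values per library, so no difference between stages has a replicate check and no test between stages was made. In developmental order the lists held 46275, 48416, 43317 and 64713 peaks. A percentile depends on the other peaks of its list, and the late gastrula list is the longest. Sequencing depth is unknown. Intervals below are Wilson 95% intervals, which cover the counting of regions only. Coordinates are 1-based positions on the scaffolds named in the lists.

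By percentiles over the whole lists, losses of this size were less frequent than gains. The 1071 members made up 4.54% of constant regions, while 2825 constant regions (12.0%) gained at least 30 points. The median change over all constant regions was 4.41 points upward. Over the members it was −39.2 points, with quartiles of −47.4 and −34.0, which the choice of members fixes. With percentiles taken among the constant regions alone, 1848 regions lost at least 30 points, 1030 of the members among them. With all lists shortened to the length of the shortest, 1947 did, with 675 of the members. Gains were not counted under these settings, so whether losses stay the less frequent direction there is not known.

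**Figure D1:**
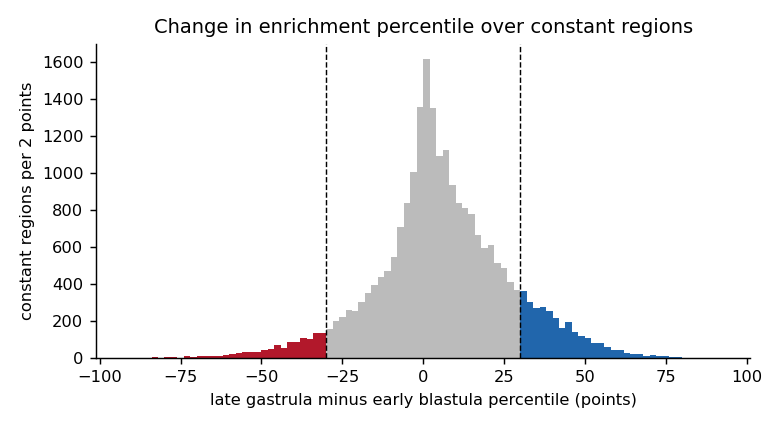
The horizontal axis gives the late gastrula minus early blastula percentile in points, and each bar counts constant regions in a bin of 2 points. Bars in red are the 1071 members, bars in blue the 2825 regions that gained at least 30 points, and the dashed lines mark both limits.

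Members started high. Their median percentile was 75.1 at early blastula, passed through 55.1 and 36.3 at the early and mid gastrula, and reached 30.7 at the end. Over all constant regions the medians in developmental order were 60.5, 64.3, 61.8 and 69.2. The 10563 constant regions whose end points lay within 10 points of each other also started high, with an early blastula median of 75.6. At early blastula 538 members (50.2%) ranked above the 75th percentile and 91 (8.50%) at or below the 50th. Over all constant regions these shares were 34.1% and 39.9%, and 50.8% of those within 10 points ranked above the 75th. At late gastrula 404 members (37.7%) ranked below the 25th percentile, beside 13.9% of all constant regions. Still above the 50th were 159 members (14.8%), beside 68.5%. The late gastrula percentiles of members ranged from 0.369 to 69.2, so they ended at unlike levels. Both end points entered the choice of members, which favours a high start and a low end. The shares of members at these 2 stages are therefore descriptions.

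The deposited enrichment, a fold over background, was lower at late gastrula than at early blastula in each of the 1071 members, which follows from how they were chosen. Its median over members was 8.87, 8.55, 7.41 and 6.37 in developmental order. Over all constant regions it was 7.64, 9.34, 9.50 and 9.49, and 20.7% of constant regions had a lower value at late gastrula than at early blastula. These are the authors' values per peak and serve here to describe peaks within each list.

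The values just at the limit show how fine the division is. The members nearest to it were on scaffold 8 at 1708880 to 1709237, with a change of −30.04 points, on scaffold 5 at 20682904 to 20683279, also −30.04, and on scaffold 14 at 23818151 to 23818564, with −30.05. The nearest constant regions beyond it were on scaffold 15 at 18157363 to 18157841, with −29.995 points, on scaffold 17 at 22049019 to 22049238, with −29.93, and on scaffold 4 at 20665001 to 20665421, with −29.93.

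Ranks in the early and mid gastrula lists took no part in choosing the members, although a peak in each of these lists was required. The change between these ranks is nevertheless part of the total loss the rule asks for. The choice of members thus favours a drop from early to mid gastrula. From early to mid gastrula 903 of the 1071 members (84.3%, 82.0 to 86.4) went to a lower percentile, against 52.9% of all constant regions. The median change at this step was −14.96 points over the members, −0.50 over all constant regions and −0.63 over the 10563 constant regions whose end points lay within 10 points of each other. A drop of at least 30 points at this step alone occurred in 213 members (19.9%) and in 3.15% of all constant regions. A rise of at least 30 points occurred in 0 of the 1071 members and in 1.74% of all constant regions. The 2825 gaining regions lay the other way at this step, with a median of 6.70 points upward and 31.2% at a lower percentile. With all lists shortened to the shortest, the median over the members then found was −5.85 points, beside 1.65 over all constant regions.

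The difference at this step was present in each of 4 bands of the early gastrula list. Among regions between the 75th and 100th early gastrula percentile, the median change to mid gastrula was −23.4 points over 266 members and −1.52 over 8583 other constant regions. Between the 50th and 75th it was −21.1 over 352 members and −0.09 over 5771 others. Members and others thus parted most where the early gastrula rank was high. No member ranked above percentile 69.2 at late gastrula, so those in the top band had to fall after early gastrula. The choice of members therefore favours a wide gap there. Between the 25th and 50th the medians were −11.0 over 314 members and 2.45 over 4292 others. Below the 25th, where little room is left for a drop, they were −2.90 over 139 members and 1.72 over 3849 others.

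**Figure D2:**
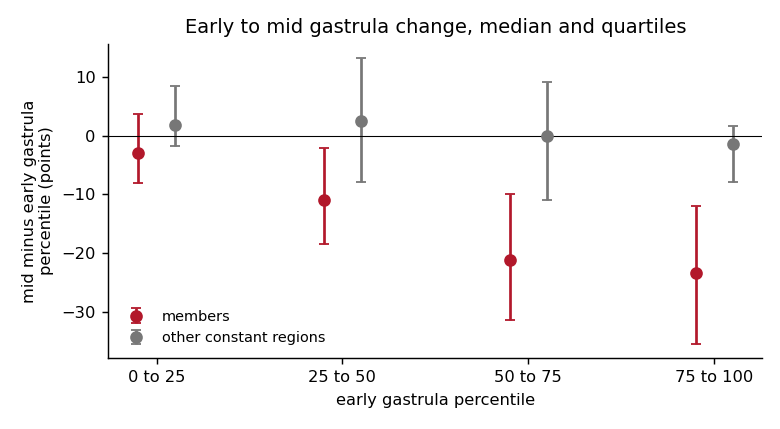
The vertical axis gives the mid minus early gastrula percentile in points within 4 bands of early gastrula percentile; points are medians and bars quartiles, in red for members and in grey for other constant regions. The median of the members lies below that of the others in each band, by the widest margin in the upper 2 bands. The choice of members favours a wide margin in the top band.

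Members differed in when the loss came. The step from early blastula to early gastrula held the largest single loss in 490 members (45.8%), the step from early to mid gastrula in 388 (36.2%) and the step from mid to late gastrula in 193 (18.0%). Over all constant regions these shares were 32.4%, 43.1% and 24.4%. A percentile that was lower at each of the 3 steps was found in 517 members (48.3%), beside 5.86% of all constant regions. By early gastrula the median member had completed 43.0% of its loss and by mid gastrula 86.0%. In 312 members (29.1%) the late gastrula percentile exceeded that of mid gastrula, by up to 36.3 points. This was less frequent than over all constant regions, where the share was 66.7%. The first and the last step each share a list with the contrast that chose the members, and the 3 steps add up to the loss the rule asks for. This split and these shares are therefore descriptions. With all lists shortened to the shortest, the last step held the largest loss in 42.7% of the members then found and in 50.03% of all constant regions. By −log10 of the p-value, the other strength the authors gave, the middle step held it most often, in 49.7% of the members then found and in 50.1% of all constant regions.

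Drops of at least 30 points within a single step were spread over the steps in the same order. They occurred in 259 members (24.2%) from early blastula to early gastrula, beside 2.52% of all constant regions. From mid to late gastrula they occurred in 76 members (7.10%), beside 0.581%. Both steps share a list with the rule, so the choice of members favours these higher shares. The members with the latest loss were also those that started highest, with a median early blastula percentile of 83.8 against 77.9 for the middle class and 68.9 for the earliest.

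**Figure D3:**
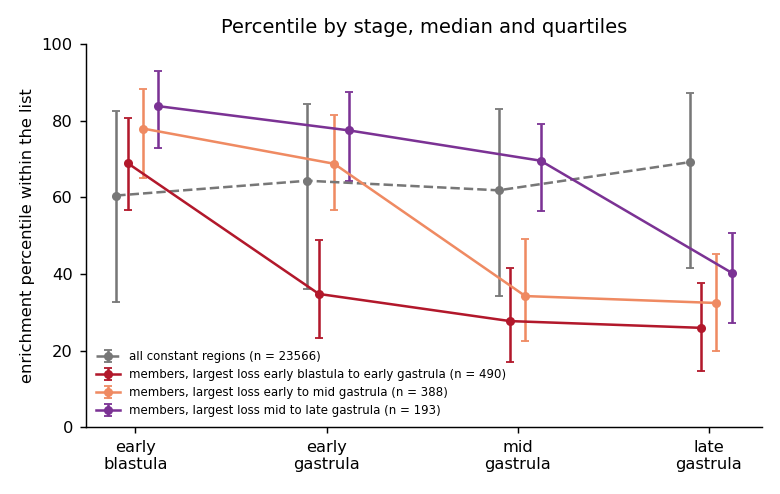
The vertical axis gives the enrichment percentile within the list of each stage; points are medians and bars quartiles. The 490 members with the largest loss at the first step, the 388 at the second and the 193 at the third are drawn in colour and all 23566 constant regions in grey; the classes of members reach medians of 26.0, 32.4 and 40.3 at late gastrula against 69.2 for all constant regions.

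The 10 largest losses of percentile lay on 9 scaffolds. The first, on scaffold 6 at 25106191 to 25106588, had an enrichment of 11.8 before gastrulation and of 11.3, 7.33 and 3.50 in the successive gastrula lists. Its percentile went from 92.9 through 80.7 and 34.9 to 2.10. This region was thus near the top of the list before gastrulation and near the bottom at its end, with most of the loss after early gastrula. The second, on scaffold 2 at 11758263 to 11758880, had enrichments of 11.5, 10.8, 6.03 and 3.85 in the same order of stages. Its largest loss also came after early gastrula.

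An earlier loss was seen at the next sites. The region on scaffold 15 at 24765742 to 24766230 had enrichments of 14.1, 8.49, 5.44 and 4.79. The region on scaffold 7 at 27570503 to 27571056 had 11.3, 7.57, 5.10 and 4.17, and that on scaffold 22 at 30709429 to 30709800 had 10.6, 7.62, 4.82 and 3.86. In these the first step was the largest, and mid and late gastrula differed little. Rank 10, on scaffold 24 at 4901457 to 4901763, followed the same course with 10.6, 7.40, 5.06 and 4.81.

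The others declined over all stages or late. The region on scaffold 23 at 2077016 to 2077312 had enrichments of 15.5, 10.9, 8.06 and 5.28. The region on scaffold 18 at 14799213 to 14799596 had 11.6, 8.79, 6.75 and 4.99. The region on scaffold 6 at 9802040 to 9802507 had a slightly higher enrichment at early gastrula than before, with 15.4, 16.1, 9.55 and 5.60. So did that on scaffold 17 at 29034972 to 29035298, with 12.4, 13.2, 8.96 and 5.30. Their percentiles went down at that step, from 98.6 to 96.5 and from 94.7 to 89.6. Enrichment at mid gastrula was below that at early gastrula in all 10 sites. By −log10 p all 10 also lost more than 30 percentile points, with changes from −30.9 to −94.2.

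**Figure D4:**
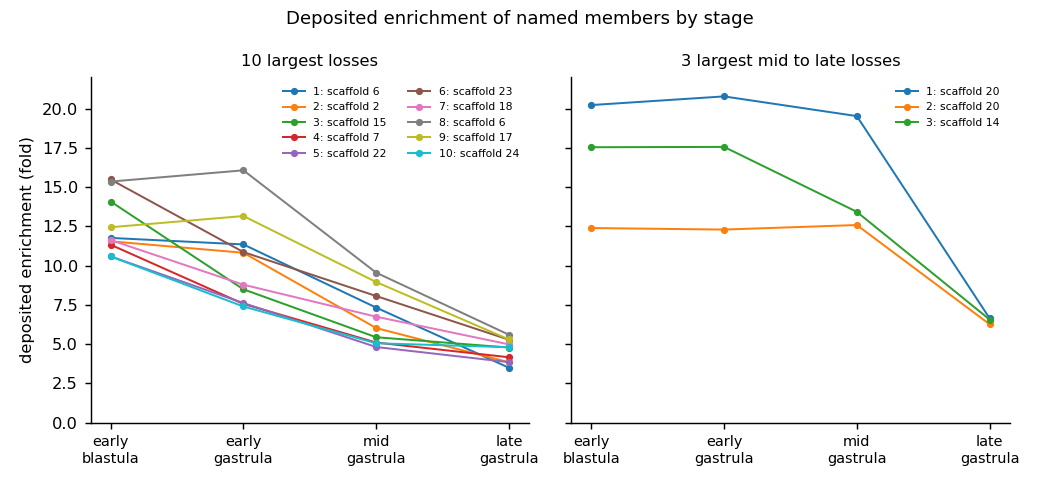
Both panels give the deposited enrichment, a fold over background, at the 4 stages, with 1 line per region. The 10 largest losses (left) went from between 10.6 and 15.5 at early blastula to between 3.50 and 5.60 at late gastrula, and the 3 largest losses of percentile at the last step (right) stayed at 12.3 or higher through mid gastrula before values of 6.27 to 6.65 at late gastrula.

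Some members kept a very high rank until mid gastrula. A region on scaffold 20 at 29436632 to 29437474 had enrichments of 20.2, 20.8, 19.5 and 6.65, and its percentile was 98.8 at mid gastrula and 34.6 at late gastrula. Its early blastula and late gastrula summits lay 338 bp apart, so the late gastrula peak was centred elsewhere within the region. A second region on scaffold 20, at 28805020 to 28805507, had 12.4, 12.3, 12.6 and 6.27, and its summit moved by 5 bp. On scaffold 14, the region at 33574421 to 33574756 had 17.5, 17.6, 13.4 and 6.57, with a summit shift of 5 bp as well.

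At the step from early to mid gastrula the largest drop in percentile was on scaffold 2 at 11661305 to 11661874, with enrichments of 12.9, 12.8, 6.31 and 6.71. It was followed by scaffold 8 at 4078781 to 4079115, with 9.19, 10.7, 5.18 and 7.48, and scaffold 25 at 5018144 to 5018359, with 8.23, 11.8, 6.13 and 5.65. The scaffold 8 region had its lowest value at mid gastrula and a partial return at late gastrula.

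At the first step the largest drop in percentile was on scaffold 16 at 32418757 to 32419091, with enrichments of 9.21, 5.44, 6.70 and 6.85. Next were scaffold 17 at 24597048 to 24597353, with 12.1, 6.77, 6.07 and 8.10, and scaffold 22 at 24417503 to 24417751, with 9.22, 5.66, 7.20 and 5.68. Each of these had its lowest value before late gastrula, so the end points understate the dip.

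The members of highest early blastula enrichment included the scaffold 20 region at 29436632 named above. The highest, on scaffold 4 at 48410515 to 48410911, had enrichments of 20.7, 19.7, 9.16 and 8.86. The third in this order, on scaffold 20 at 30955297 to 30955711, had 19.3, 19.8, 8.79 and 7.28. In both the drop fell between early and mid gastrula.

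Within a member, the peaks of different stages marked nearly the same site. The early blastula and late gastrula peaks overlapped in 1063 of the 1071 members (99.3%) and in 99.5% of all constant regions. The merging of overlapping peaks into regions favours this. The summits of these peaks lay within 100 bp in 965 members (90.1%), against 93.1% of all constant regions. The median summit shift between these stages was 14 bp over members and 10 bp over all constant regions. Between early and mid gastrula it was 10 bp and 8 bp. In 106 members the end point summits were more than 100 bp apart, and there the ranks compare neighbouring positions in 1 region. Exactly 1 peak per stage was found in 992 members (92.6%), beside 89.0% of all constant regions.

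Peaks of members also became narrower along with their rank. Their median width in developmental order was 358, 348, 316 and 292 bp, while over all constant regions it was 330, 322.5, 316 and 309 bp. From early to mid gastrula, a step whose ranks were not used in choosing the members, the peak was narrower in 747 members (69.7%, 66.9 to 72.4), beside 53.1% of all constant regions. The rank change at this step is nevertheless part of the loss the rule asks for. The width of a called peak depends on its height above the calling threshold. Its part in the result was not tested.

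The authors' score reflects how well replicates agreed on the rank of a peak, and it is capped at 1000. The maximum score of 1000 was held by 81.3% of members in the blastula list and by 72.0%, 38.8% and 37.9% in the successive gastrula lists. The shares over all constant regions, in the same order, were 58.1%, 65.4%, 56.0% and 73.3%. In the early gastrula list members thus held the maximum score more often than constant regions in general, although their median enrichment percentile was already lower. In that list it was also held by 70.5% of the constant regions whose end points lay within 10 points, and by 49.8% of the gaining regions. At late gastrula 406 members combined the maximum score with a percentile at least 30 points below that of early blastula.

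Members lay closer to sites that opened during gastrulation than constant regions in general. Opening regions are taken here as those with a first peak at early, mid or late gastrula and a peak at every later stage, and closing regions as their mirror image, with peaks from early blastula up to a last stage. An opening region had its centre within 10 kb of 847 members (79.1%, 76.5 to 81.4), against 59.3% of all constant regions and 51.3% of the gaining regions. The mean number of opening regions in that distance was 1.98 around members, 1.13 around all constant regions and 0.82 around gaining regions. A closing region was within 10 kb of 346 members (32.3%), below the 37.5% of all constant regions and the 44.8% of gaining regions.

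Regions of single stages were counted in the same way. A region of late gastrula alone was within 10 kb of 601 members (56.1%, 53.1 to 59.1), against 41.3% of all constant regions. A region of early blastula alone was within 10 kb of 231 (21.6%, 19.2 to 24.1), against 26.1%. By the early and mid gastrula lists, whose ranks the choice of members did not use, regions with a peak at mid but not early gastrula were near 45.5% of members and 30.4% of all constant regions. Those with a peak at early but not mid gastrula were near 37.5% and 39.9%. The mid but not early class includes opening regions first seen at mid gastrula. These need a peak in the late gastrula list, which entered the choice of members.

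The mean number of early blastula regions within 10 kb, the region itself left out, was 1.97 for members and 2.01 for all constant regions. In the early gastrula list these means were 2.42 and 2.08, in the mid gastrula list 2.56 and 1.94, and in the last list 3.67 and 2.74. Members therefore began among as many open neighbours as other constant regions and ended among more. The median edge-to-edge distance to the nearest region of any pattern was 780.5 bp for members and 766 bp for all constant regions, and 38 members (3.55%) had no region within 10 kb, against 8.18%.

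The excess was seen at each distance tried. Within 5000 bp, 65.6% of members and 40.4% of all constant regions had an opening region, and within 2000 bp 34.0% and 21.9%. Within 20000 bp the shares were 87.7% and 76.5%, and within 50000 bp 96.3% and 92.7%. It was also seen among regions that started high: with an early blastula percentile above 50, 77.3% of 980 members and 51.9% of 14152 constant regions had an opening region within 10 kb. A closing region was near 30.8% (28.0 to 33.8) and 31.8% of these, and a region of early blastula alone near 20.8% (18.4 to 23.5) and 22.7%. Both gaps were smaller than over all constant regions, and the intervals for members include the values of the constant regions.

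The share of constant regions that were members was larger the more opening neighbours a region had. Without an opening region within 10 kb it was 2.34% (224 of 9586). With 1 it was 3.82%, with 2 it was 5.87%, with 3 it was 9.49%, and with 4 or more 12.9% (183 of 1415, 11.3 to 14.8). The share of gaining regions went the other way, from 14.4% to 3.96%. The 10 sites of largest loss each had at least 1 opening region within 10 kb, and 3 had a closing region. Regions on a scaffold share their surroundings and are not independent of each other, and the late gastrula list that defines part of the opening regions also entered the choice of members.

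This relation depended on which of the deposited strengths was ranked. A loss of at least 30 points by −log10 p was found in 1258 constant regions. Of these, 60.9% (58.2 to 63.5) had an opening region within 10 kb, against 59.3% of all constant regions. Their share changed little with the number of opening neighbours, from 5.13% with none to 6.78% with 4 or more. A closing region was near 41.5% (38.8 to 44.2) of the 1258, above the 37.5% of all constant regions, where members by enrichment lay below it. A region of late gastrula alone was also near 41.5% of them, against 41.3%. One with a peak at mid but not early gastrula was near 33.0% of them, against 30.4%. The interval for opening regions includes the share of all constant regions. An excess of opening neighbours like that for ranks by enrichment was thus not seen for ranks by −log10 p.

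By both measures together the members divided into unlike classes. By −log10 p the median change from early blastula to late gastrula was −34.3 points over members and 4.64 points upward over all constant regions. A lower percentile at late gastrula by this measure was found in 1025 of the 1071 members (95.7%). A loss of at least 30 points by it was found in 615 members (57.4%), beside 5.34% of all constant regions. The other 456 members lost 30 points by enrichment alone. Of these 456, 427 (93.6%, 91.0 to 95.5) had an opening region within 10 kb, with a mean of 2.69 such regions. Of the 615 that lost by both measures, 420 (68.3%, 64.5 to 71.8) had one, with a mean of 1.44. Of the 643 constant regions that lost by −log10 p alone, 346 (53.8%, 49.9 to 57.6) had one.

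The split itself sets how far −log10 p went down in these classes, so the following values are descriptions. In the 456 members that lost by enrichment alone, the median −log10 p was 47.9 at early blastula and 39.4 at late gastrula, and the median peak width 363 and 341 bp. In the 615 that lost by both, the median −log10 p was 44.5 and 20.3, and the median width 353 and 263 bp. Over all constant regions the median −log10 p was 34.2 and 43.5. The enrichment is a ratio to a background whose definition no source used here gives. Whether the signal at the peak or the background beside it differed between stages was not tested.

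**Figure D5:**
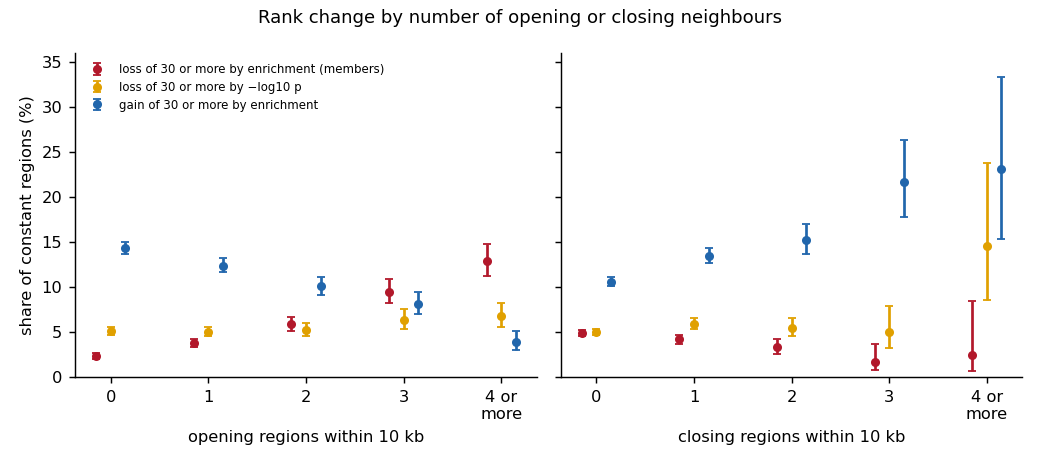
The vertical axes give the share of constant regions in percent, with Wilson 95% intervals, by the number of opening (left) or closing (right) regions within 10 kb. With opening neighbours members, in red, go from 2.34% to 12.9% and regions that gained at least 30 points, in blue, go from 14.4% to 3.96%. Regions with a loss by −log10 p, in yellow, stay between 5.08% and 6.78% with opening neighbours. With 4 or more closing neighbours they reach 14.6% (12 of 82, 8.57 to 23.9).

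Members lay on all 27 scaffolds of at least 10 Mb, with 4 to 65 on each. These scaffolds held 1060 of the 1071 members (99.0%), beside 98.4% of all constant regions. Members made up 2.90% of the constant regions of scaffold 24 (7 of 241) and 7.23% of those of scaffold 23 (24 of 332), the extremes among the 27. The interval of 25 of the 27 scaffolds included the share over all constant regions. The other two were scaffold 23 (4.91 to 10.5) and scaffold 11 with 6.08% (4.72 to 7.79). Gaining regions outnumbered members on 26 of the 27 scaffolds, and scaffold 26 held 5 of each.

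Another member lay within 10 kb of 104 members (9.71%, 8.08 to 11.6), beside 5.41% of all constant regions. The closest pair, on scaffold 11 at 15363420 to 15363725 and at 15363754 to 15364246, was separated by 28 bp. Enrichments there were 7.17, 7.71, 6.75 and 5.47 in the first and 10.0, 13.1, 9.26 and 6.44 in the second. The levels differed, while both had their highest enrichment at early gastrula. By percentile the first region went down from early blastula to early gastrula, from 53.1 to 44.1, and the second up, from 84.7 to 89.2. This pair had 7 and 6 opening regions within 10 kb, and its changes by −log10 p were only −4.11 and −16.7 points.

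The next pair behaved differently. It lay on scaffold 22 at 1491458 to 1491654 and at 1491706 to 1491895, 51 bp apart, with enrichments of 7.20, 6.08, 6.19 and 4.91 and of 6.87, 5.92, 6.68 and 5.15. By percentile both lost most at the first step, with changes of −32.9 and −29.2 points. On scaffold 14 the regions at 9368837 to 9369150 and at 9369214 to 9369613, 63 bp apart, had 9.72, 8.84, 6.96 and 6.77 and 6.05, 5.93, 3.82 and 3.73. Both had nearly equal values at mid and late gastrula.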

How the data were processed

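ATAC-seq was made from pooled whole embryos at 4 stages, with 2 libraries each. Per the submitters' processing notes, Bowtie2, bedtools and MACS2 were used, without version, role or settings. No source used here gives the build, any Tn5 shift, the treatment of duplicates, or whether libraries were pooled before calling. For each stage the authors deposited a single peak list, in the layout of the IDR (irreproducible discovery rate) tool: a score of at most 1000, an enrichment (a fold ratio over background), −log10 of a p-value and a summit offset. Peaks near the list threshold can be missed in another stage, and members need a peak at all 4 stages.

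Lists were merged in Python 3.11.15 (NumPy 2.4.6, pandas 2.3.3, SciPy 1.17.1, Matplotlib 3.10.9), and bedtools gave the same 82811 regions. On simulated lists of 30000 well-separated regions, all 127 members were recovered with 0 false ones. True members were defined there by the same ranks and limit, so this checks only the merging and the handling of ranks. Percentiles average ties. The members, and the sites and neighbourhoods described, were chosen with earlier results of these data known. Opening and closing neighbours, and the split by −log10 p, were added after the data were seen. Sites named are the 10 largest losses, the 3 largest at each step, the 3 of highest early blastula enrichment, 3 on each side of the limit, and the 3 closest pairs of members. Planned sequence and gene comparisons were not run, because no genome of a stated build was used here.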

Additional observations from a re-analysis of the deposited data

How the results depend on the processing

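No paired analysis was possible because values per library are not in the lists used here, and for that reason no replicate could be left out. Of 66 values under 11 alternatives (10 planned, and 1 chosen after seeing the data that asks for a loss by both enrichment and −log10 p), 0 changed sign; 36 stayed within 1.5 times the count or within the 95% interval of the reported value, and 30 did not. Counts and shares cannot change sign. The number of members was 1848 with percentiles taken among constant regions (equal numbers at every stage), 2160 and 509 with limits of −20 and −40 points, 1947 with lists shortened to the shortest, and 615 with a loss by both measures. Of the 1071 members, 1030, 1071, 509, 675 and 615 were in these sets. The median mid minus early gastrula change was −10.5 points among constant regions, −21.7 by −log10 p, −11.1 and −18.3 with the other limits, −5.85 with shortened lists, −12.9 with the mean over peaks and −17.6 with both measures. The share of members lower at mid than early gastrula was, in that order, 78.6%, 88.9%, 81.4%, 90.8%, 68.3%, 81.2% and 86.7%. With shortened lists 41.6% of all constant regions were lower, in place of 52.9%. The share with the largest loss at the last step was 23.5% among constant regions, 21.9% by −log10 p, 42.7% with shortened lists, 22.5% with the mean and 20.7% with both. The first step held the largest loss most often, except by −log10 p and with both measures, where the middle step did (49.7% and 41.8%), and with shortened lists, where the last did (50.03% over all constant regions); the cause was not tested. The median distance to the nearest region was 938 bp with IDR of at most 0.05 and 898 bp with both. The share with an opening region within 10 kb was 73.9% among constant regions, 60.9% by −log10 p, 66.1% with shortened lists (all constant regions 40.8%) and 68.3% with both. Of 227 values for the named sites, 132 were identical to the reported ones, and 77 of the other 95 kept their side of the limit. By −log10 p the sites just inside the limit on scaffolds 5 and 14 changed sign, to 7.41 and 8.83 points.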
